A study of Mus musculus with 12 samples.

Results

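The genes of anti-Müllerian hormone, inhibin, activin and follistatin were followed in mouse ovaries after a diet lacking vitamin D. The 6 genes, Amh, Amhr2, Inha, Inhba, Inhbb and Fst, were taken by symbol among 18559 genes and transcripts tested, and each is read by 1 probe of 39429 distinct transcript probes. RNA came from the ovaries of 12 adult females of the inbred strain C57BL/6J, 2 months old, and was hybridised to Agilent arrays in 2 colours. Early-life mice (samples E1 to E4) lacked dietary vitamin D in early life only, peripubertal mice (P1 to P4) lacked it around puberty only, and control mice (C1 to C4) ate a normal diet. The 4 females of a group are biological replicates, per the series' design. Each of the 6 arrays paired 2 ovaries of the same group, with odd-numbered replicates in Cy3 and even-numbered ones in Cy5. One slide carried the early-life and control arrays and another the peripubertal ones, and the effects of the second slide and of the peripubertal diet cannot be told apart.

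Anti-Müllerian hormone, inhibins and activins belong to the TGF-beta family of secreted dimers and are made in the ovary by the granulosa cells of growing follicles. Anti-Müllerian hormone (Amh) signals through its own type II receptor (Amhr2) and restrains the recruitment of resting follicles. Activins are dimers of beta subunits (Inhba, Inhbb) and raise the release of FSH by the pituitary, inhibins pair a beta subunit with the alpha subunit (Inha) and oppose activin, and follistatin (Fst) binds activin and blocks it.

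The group names are those given to the scanner files, and a second deposit of the series goes against them. In the deposited value table the 8 early-life and control columns each matched a scanner channel that carries the opposite group name (lowest correlation 0.99977 across features). The sign of every difference between early-life and control ovaries is therefore open. If those arrays were exchanged, peripubertal against control would turn into peripubertal against early life. The 4 peripubertal columns of that table matched none of the 12 channels (highest correlation 0.897) and were kept out of all tests.

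Channels had a median signal of 147 to 331 intensity units, 6.85 to 9.49 times the background, with 0 saturated spots. All 12 granulosa markers listed (among them Fshr, Cyp19a1 and Foxl2) and all 12 oocyte markers were well above background in 12 of 12 samples. Of 9 pituitary markers Prl, Gh, Fshb, Cga, Tshb and Gnrhr were well above background in 0 of 12 samples, Pou1f1 in 2, and Pomc and Lhb in 12.

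The probes of the 3 ligand genes below show which part of each transcript was measured. They are the 60-base sequences of the array on build mm9, on the plus strand, at chr10:80270334-80270393 for Amh, chr1:75506675-75506734 for Inha and chr13:16118634-16118693 for Inhba. Each has 2 frames with no stop codon before its end, and the frame shown was set by hand from general knowledge of these proteins, not from an annotation. In that frame, capitals mark cysteine codons and, at the end of the Amh probe, the stop codon.
Amh: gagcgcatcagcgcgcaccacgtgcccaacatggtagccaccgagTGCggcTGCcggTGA
Inha: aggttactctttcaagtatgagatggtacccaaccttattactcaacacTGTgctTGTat
Inhba: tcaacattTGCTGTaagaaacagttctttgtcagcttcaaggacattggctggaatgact

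The capitals in Amh and Inha show a pair of cysteine codons split by 1 codon, as at the carboxyl end of many TGF-beta family ligands. The Inhba probe holds 2 adjacent cysteine codons. The probe of Amhr2 lies at chr15:102284930-102284989 on the plus strand. Those of Inhbb (chr1:121312160-121312219) and Fst (chr13:115243565-115243624) lie on the minus strand, and no exon or UTR annotation of mm9 was used here. All 6 probes were well above background in 12 of 12 samples, and 6 of the 72 values were left out because the scanner software set the spot aside as an outlier. A value is a normalised log2 intensity of 1 probe, comparable between samples and not between genes.

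None of the 6 genes passed the test in any of the 3 comparisons. Early-life against control ovaries gave 0 of 6 called, where 0.0216% of all genes were called at an adjusted p under 0.05 (limma, Benjamini-Hochberg over all genes). Peripubertal against control ovaries gave 0 of 6 beside 0.269% of all genes. Early-life against peripubertal ovaries gave 0 of 6 beside 2.63% of all genes. The samples of the groups compared overlapped for all 6 genes in all 3 comparisons, where 13.6%, 11.3% and 20.7% of all genes had groups that did not overlap. Only Fst between early-life and peripubertal ovaries had an unadjusted p under 0.05, while 23.9% of all genes did in that comparison. Data were simulated for early life against control, with changes put into genes drawn at random. Of these, 25.4% of 1.5-fold, 78.6% of 2-fold and 97.0% of 4-fold changes were recovered, so a change of 1.5-fold would mostly have been missed. The changes were put into 63, 70 and 67 genes, while 4 genes were called in the real comparison. The adjustment is stricter where fewer genes change, so these shares can overstate what the real test would find. The 6 members had a larger residual SD than the median gene, 0.221 (Inha) to 0.663 (Inhba) against 0.182. Recovery of changes in the members was not simulated separately, and these shares do not give it.

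**Figure D1:**
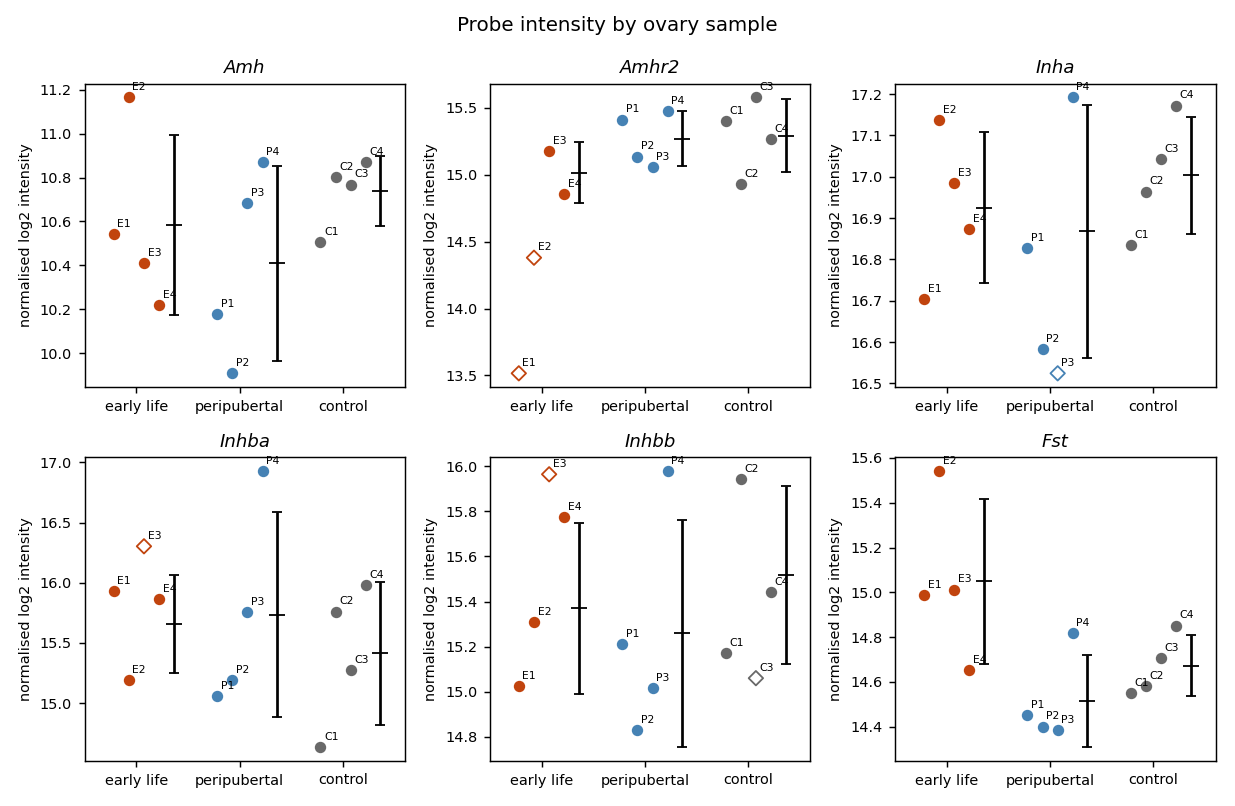
Normalised log2 intensity (y axis) of the 6 genes in each early-life (E), peripubertal (P) and control (C) ovary. Filled points are values used, open diamonds are values of spots set aside as outliers, and bars are the group mean ± SD of the filled points. The groups overlap in every panel, and P4 is the highest peripubertal sample in all 6.

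Amh, the hormone, measured 10.54, 11.17, 10.41 and 10.22 in early-life ovaries, 10.18, 9.91, 10.69 and 10.87 in peripubertal ovaries and 10.51, 10.80, 10.77 and 10.87 in control ovaries. The early-life samples hold the highest value of all, E2, and the peripubertal samples the 2 lowest, P1 and P2, while the controls lie close together. The group means were 10.58 ± 0.41 in early-life, 10.41 ± 0.44 in peripubertal and 10.74 ± 0.16 in control ovaries (SD, n = 4 each). Amh differed by -0.15 ± 0.26 (SE; 95% confidence interval -0.74 to 0.43) between early-life and control ovaries. Between peripubertal and control ovaries the difference was -0.33 ± 0.26 (interval -0.91 to 0.26), and between early-life and peripubertal ovaries it was 0.17 ± 0.26 (interval -0.41 to 0.76). The adjusted p values were 0.798, 0.689 and 0.721. None of the neighbours in the order control, early life, peripubertal differed beyond its spread.

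Amhr2, the type II receptor that binds only this hormone, measured 15.18 and 14.86 in E3 and E4, 15.41, 15.14, 15.05 and 15.48 in peripubertal ovaries and 15.40, 14.93, 15.58 and 15.26 in control ovaries. The spots of E1 and E2, 13.52 and 14.38, lie under all others and were the ones set aside. The group means were 15.02 ± 0.22 (SD, n = 2) in early-life, 15.27 ± 0.21 (n = 4) in peripubertal and 15.29 ± 0.27 (n = 4) in control ovaries. Early-life samples differed by -0.28 ± 0.23 (SE) from controls and by -0.25 ± 0.23 from peripubertal samples (adjusted p = 0.588 and 0.540). With the outlier spots kept these differences were -0.81 and -0.79 (adjusted p = 0.356 and 0.216), still short of the threshold. Peripubertal and control means lay -0.023 ± 0.19 apart (interval -0.46 to 0.41, adjusted p = 0.980).

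Inha, the alpha subunit that makes a dimer an inhibin, measured 16.70, 17.14, 16.99 and 16.87 in early-life ovaries, 16.83, 16.58 and 17.19 in P1, P2 and P4 and 16.84, 16.96, 17.04 and 17.17 in control ovaries. The spot of P3, at 16.52, was set aside. Inha had the lowest SD over samples of the 6 genes, with its spot of P3 left out. That SD was 0.195 over 11 values, under the 0.217 of the median gene, and 42.5% of all genes had a lower one. Early-life ovaries differed from controls by -0.079 ± 0.17 (SE), with an interval of 0.729 to 1.23 as the ratio of early life to control. The ratio of peripubertal to control ovaries had an interval of 0.693 to 1.21 and that of early-life to peripubertal ovaries one of 0.784 to 1.37. The adjusted p values were 0.842, 0.825 and 0.893.

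Inhba, the beta A subunit, varied most of the 6. It measured 15.93, 15.19 and 15.86 in E1, E2 and E4, 15.06, 15.19, 15.75 and 16.93 in peripubertal ovaries and 14.64, 15.76, 15.27 and 15.98 in control ovaries, with the spot of E3 (16.30) set aside. The range of the peripubertal samples, from P1 to P4, is 1.87 on the log2 scale. The SD over samples was 0.616, and 92.7% of all genes had a lower one, against a median gene of 0.217. The early-life mean was 15.66 ± 0.41 (SD, n = 3), the peripubertal mean 15.73 ± 0.85 (n = 4) and the control mean 15.41 ± 0.60 (n = 4). The 3 differences were 0.17 ± 0.50 (SE; early life against control), 0.32 ± 0.47 (peripubertal against control) and -0.15 ± 0.50 (early life against peripubertal), with adjusted p values of 0.889, 0.838 and 0.883. The interval of the first runs from 0.516 to 2.46 as the ratio of early life to control.

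Inhbb, the beta B subunit, measured 15.02, 15.31 and 15.77 in E1, E2 and E4, 15.21, 14.83, 15.01 and 15.98 in peripubertal ovaries and 15.17, 15.94 and 15.44 in C1, C2 and C4. The spots of E3 (15.96) and C3 (15.06) were set aside. P4 is again the high sample of the peripubertal group and P2 the lowest of all. The means were 15.37 ± 0.38 (SD, n = 3) in early-life, 15.26 ± 0.50 (n = 4) in peripubertal and 15.52 ± 0.39 (n = 3) in control ovaries. Differences were -0.11 ± 0.34 (SE), -0.17 ± 0.32 and 0.064 ± 0.32 for early life against control, peripubertal against control and early life against peripubertal (adjusted p = 0.900, 0.879 and 0.926). The dye term of the model, Cy5 minus Cy3, was 0.49 ± 0.31 (SE) for Inhba and 0.42 ± 0.21 for Inhbb, and -0.19 to 0.13 for the other 4. These values were not tested, and dye cannot be told apart from odd or even replicate number.

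Fst, the activin-binding antagonist, had the lowest unadjusted p of the 6 genes. It measured 14.99, 15.54, 15.01 and 14.65 in early-life ovaries, 14.45, 14.40, 14.39 and 14.82 in peripubertal ovaries and 14.55, 14.58, 14.71 and 14.85 in control ovaries. E1, E2 and E3 lie above all peripubertal and control samples, and E4 lies among them. The means were 15.05 ± 0.37 in early-life, 14.51 ± 0.20 in peripubertal and 14.67 ± 0.14 in control ovaries (SD, n = 4 each). Early-life ovaries differed by 0.53 ± 0.20 (SE) from peripubertal ovaries, a ratio of 1.45 with an interval of 1.06 to 1.98 (unadjusted p = 0.0245, adjusted p = 0.1545, limma). They differed by 0.38 ± 0.20 from controls (ratio 1.30, interval 0.950 to 1.77, adjusted p = 0.423). Peripubertal ovaries differed by -0.16 ± 0.20 from controls (adjusted p = 0.806). Without E4 the difference of early-life from peripubertal ovaries was 0.70 (adjusted p = 0.0638). Without E2, the highest sample, it was 0.39 (unadjusted p = 0.0513, limma), and without E3 it was 0.47 (unadjusted p = 0.0660). Leaving out each of the 12 samples in turn gave adjusted p values of 0.0638 to 0.297.

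Mean values of marker lists are given for the same groups as a description. Of the adipocyte, smooth muscle, granulosa and theca lists 0 genes were called in any comparison. The mean of the macrophage list (6 of 6 markers above background in 12 of 12 samples), as a deviation from the mean of all samples, was -0.82 to -0.41 in early-life, 0.19 to 0.79 in peripubertal and -0.47 to 0.58 in control ovaries. Of its 6 genes, 4 were lower in early-life than in peripubertal ovaries by the test over all genes, where 2.63% of all genes were called. The oviduct epithelium list (10 genes, 1 of them called higher in early-life than in peripubertal ovaries) stood at -0.62 to 2.91 in early-life, -1.91 to -0.85 in peripubertal and -1.20 to 1.13 in control ovaries. The adipocyte list, 5 of 6 genes measured, stood at 0.23 to 2.76, -1.51 to 1.00 and -2.33 to -0.22 in early-life, peripubertal and control ovaries. Smooth muscle markers stood at -0.58 to -0.25 in early-life, -0.17 to 0.75 in peripubertal and -0.43 to 0.69 in control ovaries. Granulosa markers stood at -0.22 to 0.15, -0.083 to 0.33 and -0.22 to 0.17 in early-life, peripubertal and control ovaries, and the groups overlapped. P4, the high peripubertal sample of all 6 genes, had the highest granulosa value of the 12 samples, 0.33. Theca markers (4 of 6 genes measured) stood at -0.59 to 0.099 in early-life, 0.10 to 0.57 in peripubertal and -0.43 to 0.75 in control ovaries. In whole ovary fewer cells of a type and less RNA per cell cannot be told apart.

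The members' values went along with some of these lists. Over 12 samples Fst had a Pearson's r of -0.80 and a rho of -0.87 with the macrophage list, and the r was -0.52 within groups. With smooth muscle markers its r was -0.75, rho -0.84 and r within groups -0.56. With granulosa markers Inha had an r of 0.60 (rho 0.56, within groups 0.79) and Inhba one of 0.64 (rho 0.46, within groups 0.79), over 11 samples each. Inhbb had an r of 0.53 with that list, Amhr2 0.27, Amh 0.19 and Fst -0.047. With smooth muscle markers Inha had an r of -0.60 (within groups -0.86) and Inhba one of -0.56 (within groups -0.70). With macrophage markers these were -0.45 (within groups -0.83) and -0.34 (within groups -0.66). The relations given were picked among 66 after their values were seen and are a description with no test. The lists differ between the groups, and the 2 samples of an array share its hybridisation. The dye effect was not removed from the values related here, and the dye term was 0.49 for Inhba and 0.42 for Inhbb. The part of the marker lists in the members' values was not tested.

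**Figure D2:**
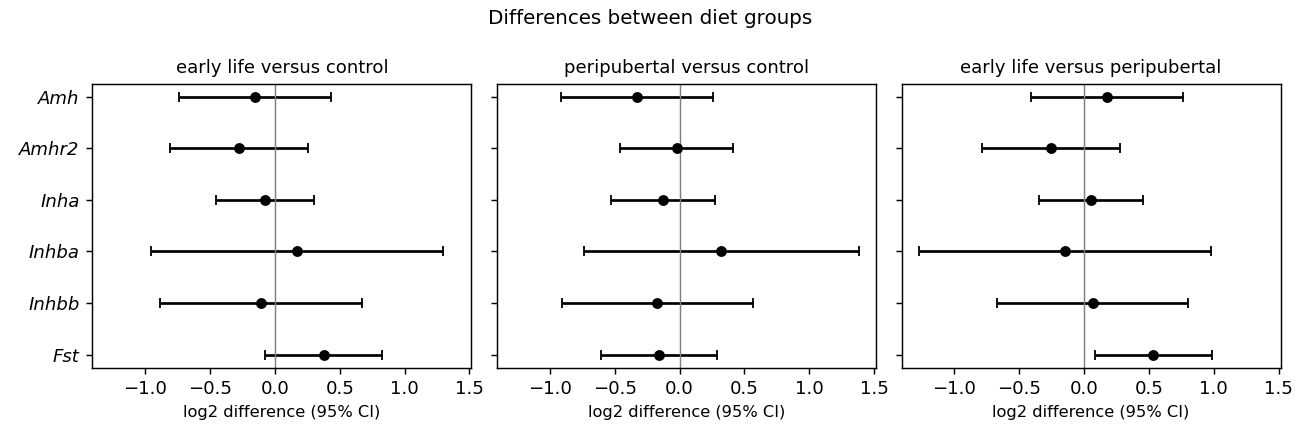
Log2 differences (x axis) of the 6 genes with 95% confidence intervals from limma, for early life against control, peripubertal against control and early life against peripubertal ovaries. Of the 18 intervals 17 span 0, and the one of Fst between early-life and peripubertal ovaries runs from 0.084 to 0.98.

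Across samples, Amh and Inha, both made by granulosa cells, had the highest correlation of the 15 pairs of members when outlier spots were left out. Over the 11 samples with both values and with the dye effect removed, Pearson's r was 0.82 (permutation p = 0.00414, adjusted over the 15 pairs p = 0.0621) and Spearman's rho 0.78 (permutation p = 0.0069, adjusted p = 0.103). Within groups r was 0.80. Without P2 and P4, the samples farthest from the median of Inha, r was 0.64, and with the outlier spot of P3 kept it was 0.63 over 12 samples. After adjustment 0 of the 15 pairs had a p under 0.05 by either measure.

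Amh and Fst had the second highest r, 0.59 over 12 samples (permutation p = 0.0239, adjusted p = 0.179) with a rho of 0.53 (adjusted p = 0.392). That r was 0.79 within groups and 0.54 without E2 and E3. The subunits Inhba and Inhbb gave an r of 0.50 over 10 samples (permutation p = 0.132, adjusted p = 0.420) and a rho of 0.35 (adjusted p = 0.672). That r was 0.60 within groups and -0.051 without P2 and P4, so over the 10 samples it rests on P2 and P4. With the outlier spots kept it was 0.63 over 12 samples, as high as the r of Amh and Inha with spots kept. The 2 samples of an array share its hybridisation, so the points are not fully independent.

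**Figure D3:**
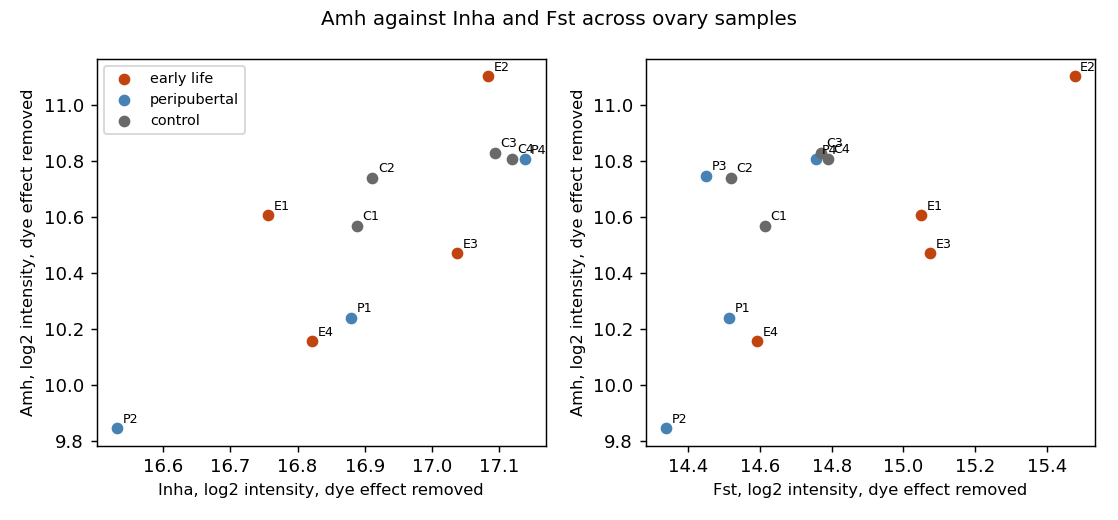
Amh (y axis) against Inha (left, 11 samples) and Fst (right, 12 samples), as log2 intensities with the dye effect removed, with each ovary marked by its sample name and coloured by group. P2 is lowest in both genes of each panel, and E2 is highest in Amh.

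The genes most like each member over the samples are given as a description with no test. They come out of about 11017 genes with values in all 12 samples and well above background in at least 10. For Amh these were Ndc1 (Pearson's r 0.97), Recql5 (0.96) and Ckap2 (0.95), over 12 samples. For Amhr2 they were Kcnh2 (0.94), Arhgap4 (0.91) and Dok7 (0.89), over 10 samples. Inha was closest to Mrpl19 (0.96), Map2k1 (0.90) and Plekhd1 (0.89), over 11 samples. The beta subunits had other neighbours, Nufip1 (0.95), Masp1 (0.92) and Slc25a40 (0.91) for Inhba over 11 samples, and Nolc1 (0.91), Lrrc41 (0.91) and Kcne2 (0.84) for Inhbb over 10. Fst was closest to Zfp184 (0.93), 2700062C07Rik (0.92) and Lrrc2 (0.91) over 12 samples. Among so many genes a few reach such an r with so few samples. Amhr2, Inha, Inhba and Inhbb lack a value in some samples, so they were not among those genes and could not be named. Neither Amh nor Fst was among the 3 closest of another member.

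Of 68 further genes of the pathway, 62 were measured, and 0 passed in any comparison. Unadjusted p values under 0.05 numbered 12 of 62 for early life against control, 4 of 62 for peripubertal against control and 10 of 62 for early life against peripubertal, beside 13.9%, 11.4% and 23.9% of all genes. The median difference of the list was 0.033, 0.064 and -0.023, against -0.024, 0.0088 and -0.034 over all genes. Inhbc, Mstn, Igsf1, Bambi, Cer1 and Id2 were on the array and did not pass the filter on dim probes and on values per group. Which of these conditions each gene missed was not recorded.

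The steroidogenic factor Nr5a1 and the zinc finger factor Gata4 drive transcription of gonadal genes that include Amh and Inha. By the scanner files' group names, both stood lower in early-life ovaries without passing. With the early-life and control arrays exchanged, the control ovaries would lie lowest instead. Nr5a1 measured 14.09, 14.12 and 14.14 in E1, E2 and E4, 14.98, 14.92, 14.64 and 14.67 in peripubertal ovaries and 14.64, 14.65, 14.76 and 14.20 in control ovaries. Every early-life value lies under every other, and the spot of E3 was left out. Nr5a1 differed by -0.66 ± 0.16 (SE; adjusted p = 0.0614) between early-life and peripubertal ovaries and by -0.43 ± 0.16 (adjusted p = 0.312) between early-life and control ovaries. Gata4 measured 12.65, 12.97, 13.30 and 13.28 in early-life, 13.77, 13.43, 13.35 and 13.59 in peripubertal and 13.76, 13.87, 13.71 and 13.60 in control ovaries, again with every early-life sample lowest. Gata4 in early-life ovaries differed by -0.49 ± 0.17 from peripubertal ovaries (adjusted p = 0.138) and by -0.69 ± 0.17 from controls (adjusted p = 0.203). Groups did not overlap in 20.7% of all genes for early life against peripubertal and in 13.6% for early life against control. Nr0b1, a repressor of Nr5a1 activity, differed by 0.59 ± 0.21 between early-life and control ovaries (adjusted p = 0.288).

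Among the receptors, Acvr2b, a type II receptor for activin, measured 11.69, 11.59, 11.41 and 11.38 in early-life, 11.31, 11.41, 11.31 and 11.47 in peripubertal and 10.80, 11.12, 11.06 and 10.99 in control ovaries. By the scanner files' group names, all 8 ovaries of the deficient groups lie above all 4 controls. Groups did not overlap in 13.6% of all genes for early life against control and in 11.3% for peripubertal against control. With the early-life and control arrays exchanged, the early-life ovaries would lie lowest instead. The difference was 0.53 ± 0.11 (SE; adjusted p = 0.166) for early life against control and 0.38 ± 0.11 (adjusted p = 0.256) for peripubertal against control, and these comparisons share their control samples. Bmpr1a, a type I receptor, differed by 0.34 ± 0.091 (adjusted p = 0.224) between peripubertal and control ovaries. Eng, an endothelial co-receptor for TGF-beta, differed by -0.75 ± 0.21 (adjusted p = 0.0817) between early-life and peripubertal ovaries.

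Of the other ligands, Bmp4, which theca cells secrete, differed by -0.56 ± 0.15 (adjusted p = 0.0808) between early-life and peripubertal ovaries and Tgfb1 by -0.39 ± 0.13 (adjusted p = 0.114). Tgfb2 differed by 0.36 ± 0.11 (adjusted p = 0.250) between early-life and control ovaries. Of the antagonists, Fstl3, a relative of follistatin, differed by -0.61 ± 0.26 (adjusted p = 0.346) between early-life and control ovaries, where Fst itself differed by 0.38. Lefty1 differed by -0.47 ± 0.23 (adjusted p = 0.394) in the same comparison. The BMP antagonist Nog was well above background in 4 of 4 early-life, 0 of 4 peripubertal and 0 of 4 control ovaries (adjusted p = 0.323 for early life against control), so no fold is given. Its values lay close together near the background, at 6.95 to 7.18 in early-life, 6.53 to 6.98 in peripubertal and 6.28 to 6.94 in control ovaries.

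Inside the cell, the inhibitory Smad6 differed by -0.55 ± 0.21 (adjusted p = 0.316), the shared mediator Smad4 by -0.16 ± 0.083 (adjusted p = 0.406) and Smad9 by -0.44 ± 0.23 (adjusted p = 0.419) between early-life and control ovaries. The proteases that cut or activate the ligands gave differences of -0.73 ± 0.34 for Pcsk5, -0.28 ± 0.18 for Bmp1 and 0.16 ± 0.29 for Pcsk6 in the same comparison. The target genes Id3 and Id1 differed by -0.36 ± 0.19 and 0.12 ± 0.31. None of these 5 protease and target genes had an adjusted p under 0.05 in any comparison.

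**Figure D4:**
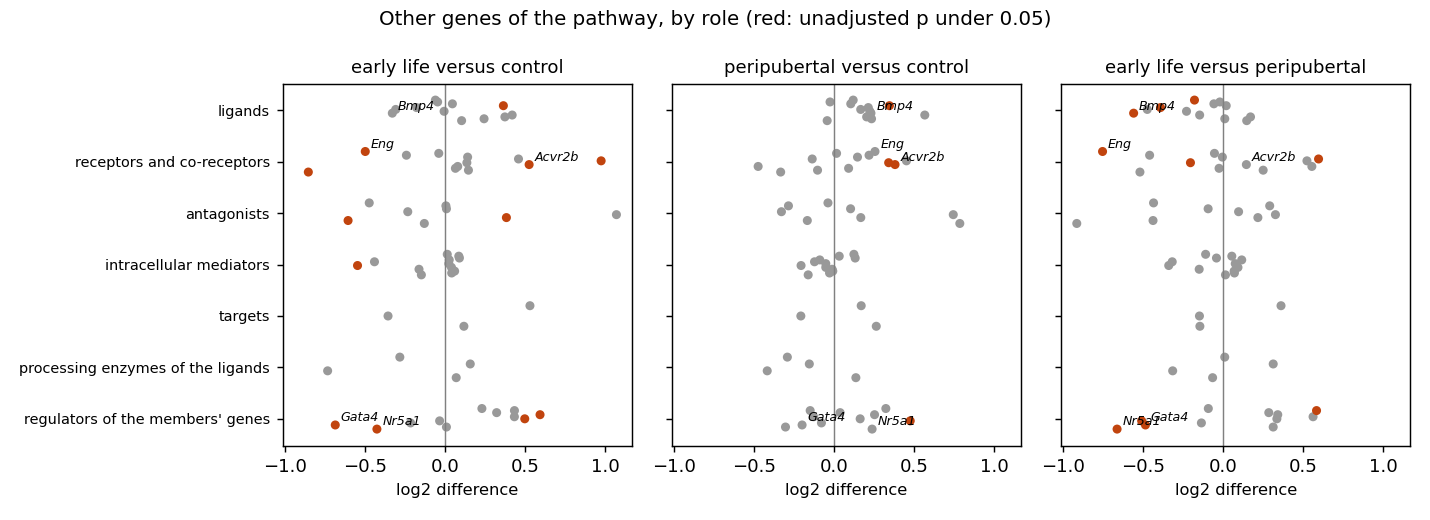
Log2 difference (x axis) of the 62 further pathway genes by role (rows) in the 3 comparisons, with genes at an unadjusted p under 0.05 in red and some of the genes described in the text marked by name. Red points number 12, 4 and 10. They lie on both sides of 0 in the first and the last panel and above 0 in the peripubertal against control panel, and 0 genes passed after adjustment.

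The promoter windows of 4 of the 6 genes (Amhr2, Inha, Inhba and Inhbb) were searched on both strands for the sites of the regulators above. The windows run from 250 bases before to 50 after the start, from RefSeq on build GRCm38.p6. The NR5A1 half-site was searched as AAGGTCA. For GATA sites the letters were TGATAA and, in a second form, as AGATAA. The cAMP response element was read as TGACGTCA or, for the variant form, TGCGTCA. The AP-1 motif was read as TGANTCA, and the direct repeat bound by the vitamin D receptor is known as DR3. Matches were found in Amhr2 alone, and both are shown, in capitals, because the factors that such sites are named for are described above. The first lies at chr15:102445128-102445150 and the second, a GATA site read on the opposite strand, at chr15:102445160-102445181, both printed on the plus strand.
Amhr2 NR5A1 half-site: cttcttccAAGGTCAgtaggggt
Amhr2 GATA: gtagtcaaTTATCAcagggttc

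Of 32851 such windows 4.72% hold the NR5A1 half-site, 9.05% the first and 11.2% the second GATA form, 7.81% the AP-1 motif, 1.79% the cAMP response element, 2.12% its variant and 0.00609% the direct repeat. The NR5A1 half-site shares letters with the direct repeat, and the cAMP and AP-1 motifs share letters with each other, while the 2 stretches shown do not overlap. A match describes letters only, and Amhr2 itself did not pass the test in any comparison.

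The 4 peripubertal columns of the deposited value table, which matched no scanner channel, held lower values of all 6 members than the other 8 columns did. Inhbb lay above 72.0% to 82.2% of features and Inha above 66.2% to 73.2% in those 4 columns. On its log2 scale, with the median of each column at 0, Inha stood at 2.41, 1.80, 2.37 and 1.47 in the 4 peripubertal columns, against 8.08 to 9.44 in the 8 early-life and control columns. Amhr2 stood at -1.64, -2.12, -1.19 and -2.46, against 5.23 to 7.91. Both genes were thus far apart in the unmatched and the matched columns, with no overlap.

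The same held for the other 4 genes. Fst stood at -0.22, -2.97, -0.78 and -1.43 in the peripubertal columns, against 5.77 to 7.15 in the other 8. Inhba stood at 0.51, -0.49, 0.59 and -0.23, against 6.55 to 8.61, and Inhbb at 2.29, 2.62, 3.50 and 2.80, against 6.61 to 8.09. Amh had a value in 2 of the 4 peripubertal columns, -1.52 and -2.03, against 1.30 to 3.18. Of 9 pituitary markers 6 were above 90% of features in all 4 peripubertal columns and 0 in all 8 others, as were 4 of 12 granulosa and 3 of 10 oviduct epithelium markers in the peripubertal columns, against 6 of 12 and 0 of 10 in the others. Of the 6 members 0 were in the peripubertal columns and 5 in the others. What those 4 columns measured was not tested, and no test was run between them and the others.

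**Figure D5:**
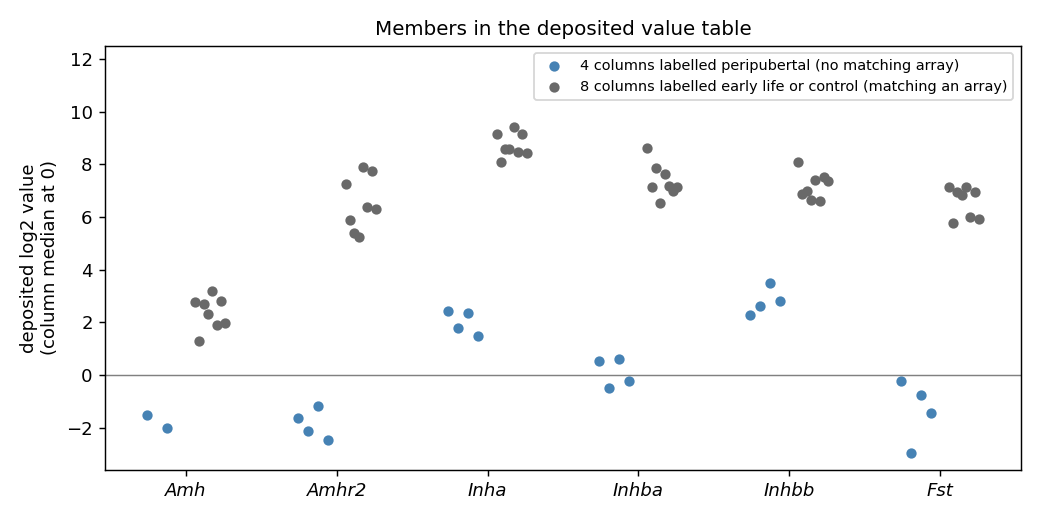
Log2 values (y axis, column median at 0) of the 6 genes in the deposited value table, with the 4 columns labelled peripubertal (blue) left of the 8 labelled early life or control (grey). Each gene is lower in all peripubertal columns that hold a value, with Inha at most 2.41 there and at least 8.08 in the others.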

How the data were processed

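Per the labels' protocols, ovaries were removed and minced, and total RNA was extracted, amplified and labelled with Cy3 or Cy5. Per the file headers, Agilent Feature Extraction, version 11.0.1.1, read the scans, and probes are placed on mm9. Each spot's mean signal and local background are deposited as intensity, without normalization. The value table deposited by the authors holds log2 values with each column's median at 0. How they were made is not given in the sources used here.

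Values were computed with R 4.3.3, limma 3.58.1 and statmod 1.5.0: normexp (offset 50), loess within arrays, Aquantile between arrays, and separate log2 channels. Outlier spots were left out. Probes whose spots were mostly well above background in 4 or more of 12 samples, with 2 values per group, were kept (23791), and the brightest stood for each of 18559 genes. One limma model compared the 3 groups, with dye as covariate and array as random block (correlation 0.288). A difference was called at an adjusted p under 0.05. Correlations were tested by permutation (100000 resamples, exact under 10 samples, two-sided). Simulated data were used to test the fit. Array number limits the precision of all values. Alternatives were other backgrounds, signals, normalizations, filters, blocks and left-out samples.

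The members, pathway and marker lists were chosen with earlier results of these data known. Of the pathway list, genes passing in any comparison are named, and otherwise up to 3 per role with the smallest unadjusted p. One gene that this rule names is not reported here. The 3 genes most like each member are those with the highest Pearson correlation. Other genes are named because they mark cell types. Theca, luteal, small-follicle granulosa, surface epithelium, adipocyte and smooth muscle markers were also listed, and 0 of their measured genes passed in any comparison.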

Additional observations from a re-analysis of the deposited data

Results flagged for a closer look

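Fst in the peripubertal sample P4 measured 14.82 on the log2 scale and stood apart from P1, P2 and P3 (14.45, 14.40 and 14.39). Its gap to the nearest of them was 0.850 of the group's range, above the critical value of Dixon's test for 4 samples. Of 13 groups of 4 values examined, 1 met this criterion, and chance gives about 1 in 20. Without P4 the difference of early-life from peripubertal ovaries in Fst was 0.63 (adjusted p = 0.137).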

How the results depend on the processing

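The count of members called was 0 in all 3 comparisons under every setting run. The smallest adjusted p of a member (limma) was 0.0669, for Fst between early-life and peripubertal ovaries with no array block, or 0.0638 with a sample left out (without E4). In that comparison Fst had an unadjusted p (limma) of 0.0938 with processed signals (difference 0.41) and 0.0577 with quantile normalization (difference 0.46). Of 180 differences of members recomputed under other settings 9 changed sign, none of them called. With outlier spots kept, Inhbb was 0.11 for early life against control and Inhba 0.089 for early life against peripubertal. In the deposited value table, with groups as its columns name them, early life against control was 0.15 for Amh, 0.97 for Amhr2, 0.10 for Inha, -0.53 for Inhba and -0.34 for Fst. Those columns match channels of the opposite group name, so between channels these differences keep their direction. That table also holds the Amhr2 spots of E1 and E2 set aside above, as 5.40 and 5.23 in its control columns C3 and C4. With the early-life and control arrays exchanged, Amhr2 was 0.25 for peripubertal against control and 0.023 for early life against peripubertal. That exchange only renames the groups of the main fit, so it is no separate check. Leaving out 1 sample turned 17 of 216 differences, and the cause was not tested. For early life against control these gave -0.15 to 0.0050 for Inha, -0.28 to 0.48 for Inhba and -0.27 to 0.033 for Inhbb. For peripubertal against control they gave -0.16 to 0.12 for Amhr2, -0.30 to 0.0063 for Inha and -0.40 to 0.12 for Inhbb. For early life against peripubertal they gave -0.0091 to 0.31 for Amh, -0.085 to 0.22 for Inha, -0.60 to 0.21 for Inhba and -0.23 to 0.29 for Inhbb.

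The replicate block left 0 members called in each comparison (Fst between early-life and peripubertal ovaries, adjusted p = 0.163). As deviations from group means, 12 same-numbered pairs of samples had correlations of -0.35 to 0.52 (median 0.044). The 36 other pairs across groups had -0.52 to 0.46 (median 0.018). Whether the numbers pair the samples was not tested, and so few samples cannot settle it. Over all genes the counts of calls, which set the background percentages, moved with the settings. They were 4, 50 and 489 as reported for early life against control, peripubertal against control and early life against peripubertal, 113, 158 and 2112 with no array block, and 0, 14 and 643 with the replicate block. Other counts that moved by over 1.5 times were 24, 0, 0, 1 and 35 for early life against control (processed signals, quantile normalization, no filter on dim probes, outlier spots kept, no dye term), 21, 26 and 80 for peripubertal against control (no filter, outlier spots kept, no dye term) and 738 for early life against peripubertal (no dye term). With the early-life and control arrays exchanged, peripubertal against control had 489 and early life against peripubertal 50. With 1 sample left out they ranged over 0 to 88, 0 to 29 and 2 to 1572 in the same 3 comparisons. For early life against peripubertal 2 genes were called without E1, 3 without E3 and 1572 without E2. No alternative probe was run, since each member has 1 probe.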
